A study of Homo sapiens with 6 samples.

Results

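The genes described here carry a cell from G1 into S phase and copy its DNA. They were 47 genes in all, of 19775 genes with a probe set of their own on the array, and were taken from a list of E2F factors, cyclin E with its kinase, origin licensing, replication fork and nucleotide synthesis genes. Each was read by the probe set with the highest mean over the 6 arrays among those annotated to that gene alone. All 47 were on the array and all 47 passed the filter on dim probe sets, which asked for a value above the median of the array on at least 3 of the 6 arrays and left 12381 genes. The cells were U251MG, an established human glioma line, grown on electrospun nanofibers of the polyester poly-caprolactone. The fibers lay highly aligned in the aligned group and in random directions in the random group, with 3 independent cultures and 1 Affymetrix HG-U133 Plus 2 array per culture in each. Both groups were grown for 24 h in medium with 10% fetal bovine serum on 60 mm dishes, with no other treatment, and cells on a flat surface were not analysed here. All cultures came from a single line, so the spread is that between cultures of that line. The values are log2 expression levels, so a difference of 1 is a 2-fold change.

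Entry into S phase runs through the E2F transcription factors. In G1 the retinoblastoma protein and its relatives hold E2F in check, cyclin D and cyclin E kinases release it, and the activator factors E2F1, E2F2 and E2F3 then switch on cyclin E itself and the replication genes. E2F7 and E2F8 are atypical members of the family that repress the same kind of promoter later in S phase. Origins are licensed in G1 when the origin recognition complex, CDC6 and CDT1 load the MCM2 to MCM7 ring, and they fire when CDC7 and cyclin-dependent kinases bring CDC45 and GINS to that ring. Aligned fibers are used as a culture model of the tracts along which glioma cells migrate.

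Promoter sequences are shown first, because most of these genes are textbook E2F targets and the letters of that motif can be read in them. RefSeq windows of 300 bases on GRCh38.p14, from 250 before to 50 after an annotated start, were found for 39 of the 47 genes, 55 windows in all. CCNE2, E2F8, MCM4, MCM5, CDK2, POLD3, RPA2 and RPA3 had none in the table. The E2F-type letters searched were TTTCCCGC, TTTGGCGC, TTTCGCGC and TTTGCCGC on both strands, which can overlap each other on opposite strands. CCAAT, the binding letters of NF-Y, was searched in the same way. Shown are the 3 genes with a window whose difference between aligned and random fibers was most negative (E2F2, GINS1, TK1) and the 3 whose difference was most positive (E2F7, RFC4, PRIM1). PCNA, the sliding clamp, and MCM6, with the most E2F-type matches of these windows, were added after their matches were seen. Where a gene had several windows, that with the most matches is given. Capitals mark the E2F-type letters and CCAAT, each on either strand.
E2F2, chr1:23531184-23531483, minus strand: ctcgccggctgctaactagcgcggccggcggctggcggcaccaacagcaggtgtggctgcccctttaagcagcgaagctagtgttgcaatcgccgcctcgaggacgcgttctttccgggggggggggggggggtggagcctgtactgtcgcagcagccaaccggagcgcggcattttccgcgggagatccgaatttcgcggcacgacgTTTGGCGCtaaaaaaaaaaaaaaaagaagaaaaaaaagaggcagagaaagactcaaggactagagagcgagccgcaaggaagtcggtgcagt
GINS1, chr20:25407423-25407722, plus strand: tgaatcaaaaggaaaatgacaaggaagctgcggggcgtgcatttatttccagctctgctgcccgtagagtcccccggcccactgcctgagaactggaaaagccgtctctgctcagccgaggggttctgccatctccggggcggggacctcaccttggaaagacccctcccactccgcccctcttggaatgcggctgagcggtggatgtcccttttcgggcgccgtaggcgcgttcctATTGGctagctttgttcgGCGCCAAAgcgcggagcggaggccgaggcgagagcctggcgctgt
TK1, chr17:78187003-78187302, minus strand: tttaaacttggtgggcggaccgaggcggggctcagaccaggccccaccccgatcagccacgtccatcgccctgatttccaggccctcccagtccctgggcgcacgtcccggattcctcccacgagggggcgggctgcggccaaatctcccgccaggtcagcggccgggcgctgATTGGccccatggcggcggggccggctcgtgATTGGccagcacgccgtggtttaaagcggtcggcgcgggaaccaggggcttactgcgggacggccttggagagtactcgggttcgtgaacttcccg
E2F7, chr12:77065520-77065819, minus strand: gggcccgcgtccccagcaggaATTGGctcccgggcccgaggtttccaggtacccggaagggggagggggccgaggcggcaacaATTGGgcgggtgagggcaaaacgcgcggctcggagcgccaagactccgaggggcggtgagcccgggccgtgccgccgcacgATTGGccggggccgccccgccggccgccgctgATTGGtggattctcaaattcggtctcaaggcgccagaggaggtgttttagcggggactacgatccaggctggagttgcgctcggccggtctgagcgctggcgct
RFC4, chr3:186806433-186806732, minus strand: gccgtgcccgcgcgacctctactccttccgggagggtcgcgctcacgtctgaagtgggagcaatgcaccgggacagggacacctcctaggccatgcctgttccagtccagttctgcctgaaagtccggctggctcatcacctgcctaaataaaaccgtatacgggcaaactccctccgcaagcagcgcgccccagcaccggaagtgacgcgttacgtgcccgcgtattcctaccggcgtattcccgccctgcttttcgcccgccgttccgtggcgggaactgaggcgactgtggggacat
PRIM1, chr12:56752274-56752573, minus strand: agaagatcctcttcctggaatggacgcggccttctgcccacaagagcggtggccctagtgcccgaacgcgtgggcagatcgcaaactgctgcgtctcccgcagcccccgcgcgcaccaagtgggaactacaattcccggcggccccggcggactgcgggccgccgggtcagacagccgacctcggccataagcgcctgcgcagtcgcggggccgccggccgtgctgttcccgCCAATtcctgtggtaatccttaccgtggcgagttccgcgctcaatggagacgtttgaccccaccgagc
PCNA, chr20:5126573-5126872, minus strand: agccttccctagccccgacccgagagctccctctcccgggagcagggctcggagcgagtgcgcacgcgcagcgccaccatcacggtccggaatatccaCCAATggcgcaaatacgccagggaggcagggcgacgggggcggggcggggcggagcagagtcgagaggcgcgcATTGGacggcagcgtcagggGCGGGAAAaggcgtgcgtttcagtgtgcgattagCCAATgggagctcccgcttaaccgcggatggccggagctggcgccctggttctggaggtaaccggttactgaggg
MCM6, chr2:135876394-135876693, minus strand: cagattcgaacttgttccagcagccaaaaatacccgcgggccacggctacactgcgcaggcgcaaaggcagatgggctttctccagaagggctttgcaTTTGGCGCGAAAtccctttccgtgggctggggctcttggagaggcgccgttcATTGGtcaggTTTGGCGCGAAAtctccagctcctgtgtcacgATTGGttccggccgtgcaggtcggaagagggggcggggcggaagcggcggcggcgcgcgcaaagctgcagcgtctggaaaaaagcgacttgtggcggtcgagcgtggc

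An E2F-type match stood in 24 of the 55 windows (43.6%), against 4.8% of 14740 windows of all genes tested and 3.31% of all 35116 windows in the table. Counted by gene, 23 of 39 had at least 1 such window. The match of E2F2 began 42 bases before the start, that of PCNA 59 bases before it and that of GINS1 at base 6 after it. MCM6 had 4 matches in 2 overlapping pairs, beginning 152 and 90 bases before the start for TTTGGCGC and 148 and 86 bases before it for TTTCGCGC on the other strand. CCAAT stood in 30 of 55 windows (54.5%), against 34.6% of the windows of all genes tested, and the E2F7 window held 4 of them but no E2F-type match. TTTGAA, the letters of the CHR element of many mitotic promoters, stood in 3 of 55 windows (5.45%), against 10.5% of those of all genes tested, and the GC box GGGCGG in 43 of 55 (78.2%) against 65.1%. By the direction of the difference, an E2F-type match was found for 16 of 24 genes with a negative and 7 of 15 with a positive difference, which was not tested. These are matches of letters, with no measurement of binding.

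1 array stood apart. The first principal component over the genes tested held 62.0% of the variance, on which aligned 3 scored 31.6 and no other array less than -11.7 or more than 6.33. The 3' minus 5' signal of the GAPDH control probe sets, a sign of RNA length, lay between 0.09 and 0.16 on aligned and between 0.08 and 0.12 on random fibers. That of the ACTB control probe sets lay between 0.09 and 0.21 on aligned and between 0.17 and 0.22 on random fibers. Of 9 glial and glioma markers 6 passed the filter. VIM, NES, SOX2, SOX9 and CD44 had mean ranks among the probe sets from the 97.3rd percentile up, GFAP lay near the median, and S100B, AQP4 and OLIG2 did not pass. The summed log2 level of this list, markers below the filter included, was 74.9 to 79.0 on aligned and 79.3 to 80.8 on random fibers. These sums did not overlap, but the markers did not move alike. S100B, below the filter, differed by -1.13 and GFAP by -0.81, against -0.09 for VIM, -0.11 for CD44 and -0.06 for AQP4. SOX9, SOX2 and NES differed by -0.53, -0.44 and -0.24, and OLIG2, below the filter, by 0.15. The part of this list in the results was not tested. The summed levels of 4 neuronal markers were 27.1 to 28.2 and 26.4 to 27.1, and those of the leukocyte markers, of which 1 of 5 passed the filter, 14.6 to 14.7 and 14.1 to 14.5, also without overlap and not tested. For endothelial (3 of 4 passed), epithelial (2 of 5) and fibroblast or pericyte markers (4 of 5) the groups overlapped.

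Most of the replication genes differed little between the substrates. Between aligned and random fibers 31 of the 47 differed by less than 0.1 log2 units. The share of all genes within that range was not computed, so this is not shown to be particular to these genes. The limma fit, with p-values adjusted by Benjamini-Hochberg over the 12381 genes tested, called 0 of 47 at 0.05. Of all genes 0% were called, and the lowest adjusted p of the 47 was 0.463. Of the 47 differences 30 were negative (63.8%), against 47.5% of all genes tested, and the median was -0.07 against 0.01 over all genes. The median was -0.03 without random 3, and lay between -0.05 and -0.09 without any other array. Lower on aligned fibers at an unadjusted p under 0.05 were 6 genes (12.8%, against 5.81% of all genes), namely E2F2, PCNA, CCNE2, E2F8, MCM4 and TK1, and higher was 1 gene (2.13%, against 4.72%), E2F7. The count of 6 was 3 without aligned 2, aligned 3, random 2 or random 3, where the share of all genes also fell, to 4.88%, 3.68%, 3.43% and 2.79%. It stayed at 6 without aligned 1, where the share of all genes rose to 10.1%. It was 8 without random 1, against 5.54%. The fit that blocks on replicate number put 4 genes lower, against 7.3% of all genes. In bulk RNA, fewer cells in S phase and less of these transcripts per cell cannot be told apart.

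**Figure D1:**
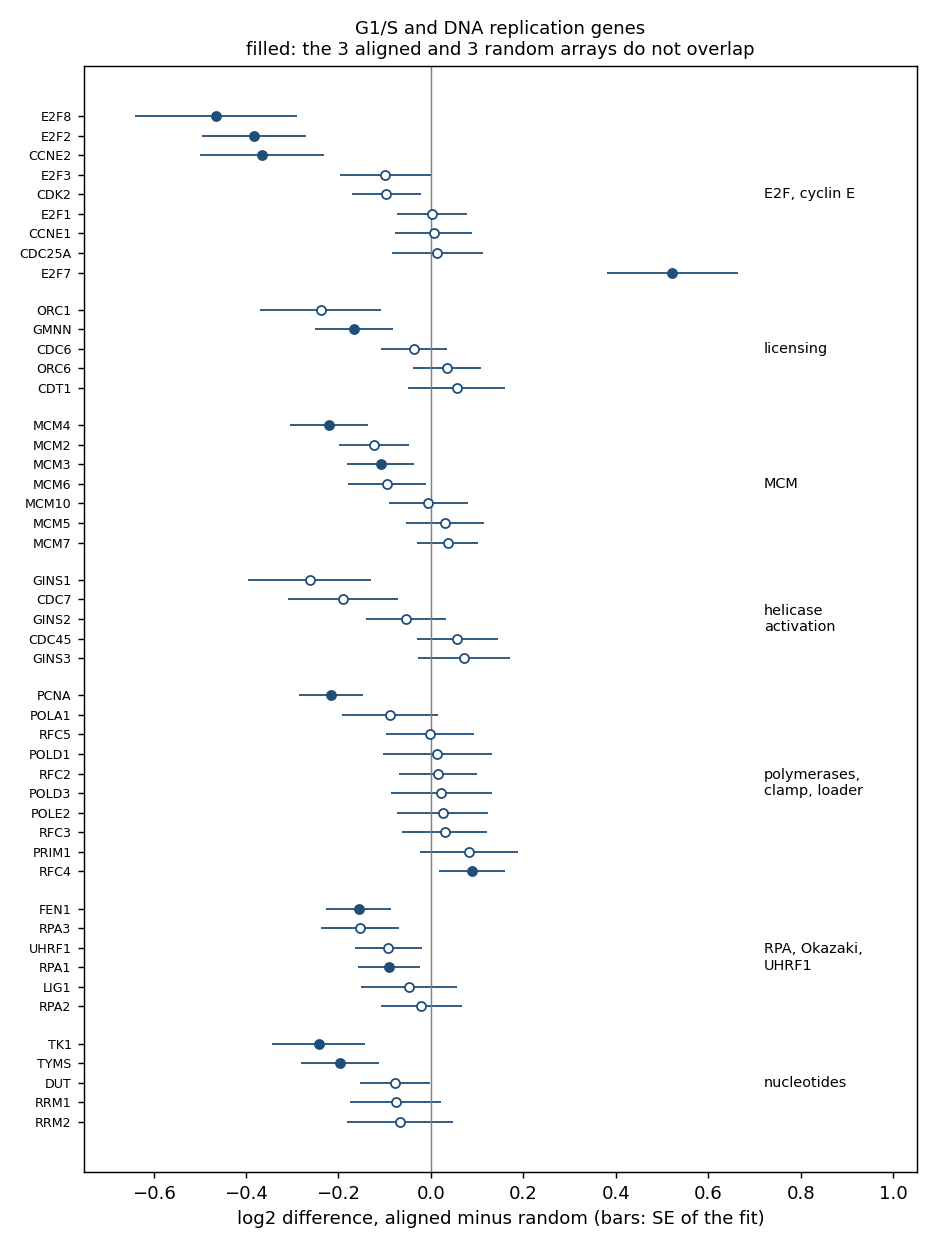
Log2 difference, aligned minus random, of each of the 47 genes (x axis), grouped by role (y axis), with the standard error of the fit as bars; filled points mark genes whose 3 aligned and 3 random arrays do not overlap. Most genes lie within 0.1 of zero, E2F8, E2F2 and CCNE2 lie lowest at -0.46, -0.38 and -0.36, and E2F7 lies highest at 0.52.

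The arrays of the groups did not overlap in 13 of the 47 genes. In 11 all 3 aligned arrays lay below all 3 random arrays (23.4%, against 9.33% of all genes tested), and these were E2F2, E2F8, CCNE2, GMNN, MCM3, MCM4, PCNA, RPA1, FEN1, TYMS and TK1. With fewer arrays fewer values can overlap, and the count was 18 without aligned 1 (against 18.8% of all genes) or without random 1 (against 16.4%), and 13 without any other array (against 12.1% to 13.7%). In 2 genes, E2F7 and RFC4, all aligned arrays lay above all random arrays (4.26%, against 8.71%). Between arrays of the same number, 17 genes were lower on aligned fibers in all 3 comparisons (36.2%, against 22% of all genes), and 3, E2F7, PRIM1 and RFC4, were higher in all 3 (6.38%, against 23.2%).

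The E2F factors held the largest differences in either direction. E2F2, an activator, read 7.67, 7.66 and 7.37 on the aligned arrays 1, 2 and 3 and 7.88, 7.86 and 8.11 on the random arrays. Its groups did not overlap, with aligned 3 lowest and random 3 highest. The log2 difference was -0.38 ± 0.11 (SE; unadjusted p = 0.0103, adjusted p = 0.463 in limma), or 1.30-fold higher on random fibers, and -0.29 without aligned 3. E2F1, the best known activator, read 9.06, 8.94 and 8.995 against 8.98, 9.08 and 8.93, with the groups interleaved and a difference of 0.00 ± 0.08, which was -0.03 without aligned 1 or without random 3. E2F3, the remaining activator, read 9.67, 9.42 and 9.35 against 9.63, 9.59 and 9.52, again with overlap, and differed by -0.10 ± 0.10.

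The atypical repressors E2F7 and E2F8 lay in opposite directions. E2F7 read 9.76, 9.93 and 10.32 on aligned and 9.44, 9.57 and 9.44 on random fibers. Every aligned array was above every random array, aligned 3 most of all, and the difference was 0.52 ± 0.14 (SE; unadjusted p = 0.00702, adjusted p = 0.463 in limma), or 1.44-fold, and 0.36 without aligned 3. Its second probe set gave 0.23. E2F8 read 6.79, 6.72 and 6.77 on aligned and 6.91, 7.12 and 7.65 on random fibers. The aligned arrays were alike and the random arrays spread upward to random 3, and the difference of -0.46 ± 0.17 (unadjusted p = 0.0311, adjusted p = 0.466 in limma) was -0.25 without random 3. Within an array, E2F7 minus E2F8 was 3.24 ± 0.29 in the aligned group and 2.26 ± 0.41 in the random group (mean ± SD of 3 arrays, exact two-sided permutation p = 0.1). This is the smallest p that 3 against 3 arrays allow, and the pair was chosen after its values were seen. Each gene alone separated the groups, in opposite directions, so the test could give no other p. It adds nothing to the values of the 2 genes.

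Cyclin E is the partner of CDK2 at the start of S phase, and its 2 genes differed in what they showed. CCNE2 read 8.29, 8.19 and 7.93 on aligned and 8.38, 8.39 and 8.74 on random fibers. The groups did not overlap, but aligned 1 and random 1 lay only 0.08 apart, while the arrays numbered 3 lay 0.81 apart. The difference was -0.36 ± 0.13 (SE; unadjusted p = 0.0282, adjusted p = 0.463 in limma), -0.26 without aligned 3 and -0.25 without random 3. CCNE1 read 8.85, 8.94 and 9.08 against 8.90, 8.98 and 8.97, interleaved, with a difference of 0.01 ± 0.08 that was -0.06 without aligned 3. Within an array, CCNE1 minus CCNE2 was 0.82 ± 0.31 in the aligned group and 0.45 ± 0.19 in the random group (mean ± SD of 3 arrays, exact two-sided permutation p = 0.2), a pair also chosen after its values were seen. CDK2 differed by -0.10 ± 0.08 and CDC25A, the phosphatase that activates it, by 0.01 ± 0.10, both with overlapping groups.

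**Figure D2:**
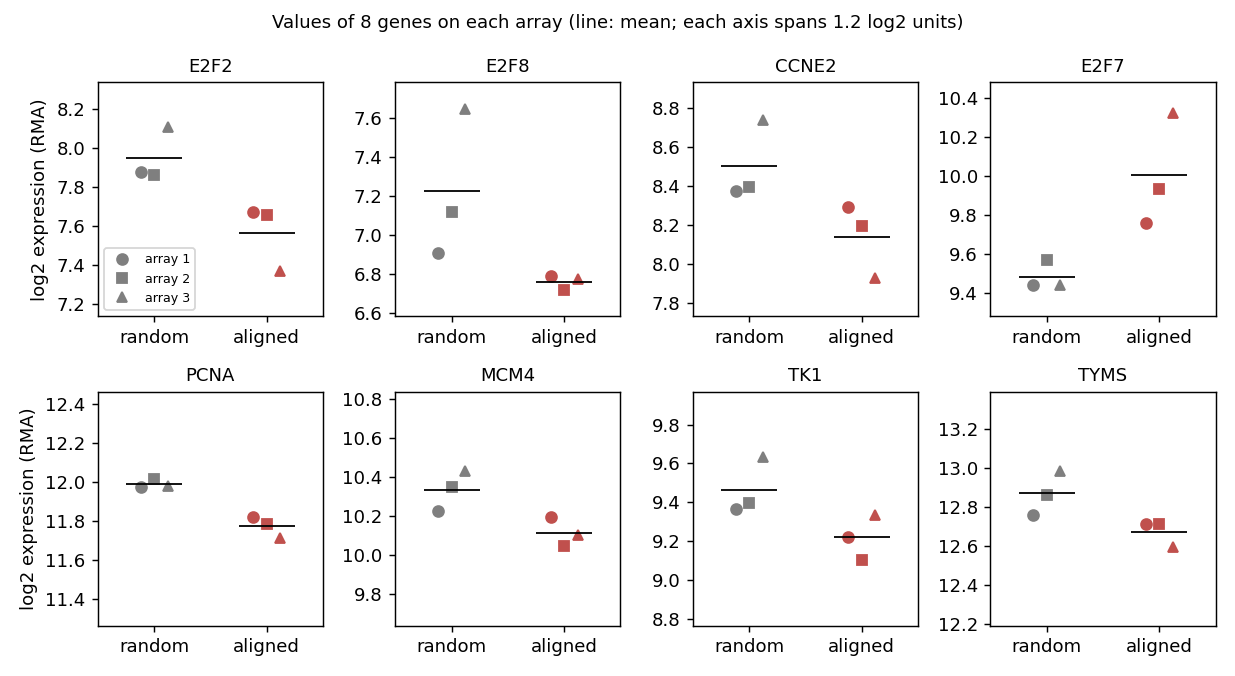
Log2 expression (y axis) of 8 genes on each of the 3 random and 3 aligned arrays (x axis), with a symbol for each array number and a line at each group mean. Each axis spans 1.2 log2 units. All 8 are among the genes whose groups do not overlap, so the separation follows from the choice of genes. In all but E2F7 the aligned arrays lie below the random arrays, the arrays numbered 3 are 0.88 apart in E2F7 and in E2F8, 0.81 in CCNE2 and 0.74 in E2F2, and PCNA spans 11.71 to 11.82 on aligned and 11.97 to 12.01 on random arrays.

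Among the licensing factors, GMNN, geminin, the inhibitor that keeps CDT1 from loading MCM outside G1, read 10.50, 10.54 and 10.47 on aligned and 10.54, 10.67 and 10.80 on random fibers. The highest aligned value was just below the lowest random value, and the difference was -0.17 ± 0.08 (SE; unadjusted p = 0.0864, adjusted p = 0.495 in limma), and -0.10 without random 3. ORC1, the largest subunit of the origin recognition complex, read 7.78, 7.75 and 7.34 against 7.75, 7.88 and 7.95. Only aligned 3 stood clearly below the random arrays, and the difference of -0.24 ± 0.13 was -0.10 without it. CDC6, the loader, differed by -0.04 ± 0.07, CDT1 by 0.06 ± 0.11 and ORC6 by 0.03 ± 0.07, all with overlapping groups. CDT1 was at -0.03 without aligned 3. ORC6 and CDT1 were read by probe sets whose suffix _x_at marks possible matches to other transcripts, so their values are uncertain. GMNN and CDC6 were read by probe sets with suffix _s_at, which were omitted together with _x_at in an alternative setting. That setting left 38 of the 47 genes.

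The MCM genes encode the replicative helicase ring, and their differences ran from -0.22 to 0.04. MCM4 read 10.20, 10.04 and 10.10 on aligned and 10.22, 10.35 and 10.43 on random fibers, without overlap but with only 0.03 between the arrays numbered 1. The difference was -0.22 ± 0.08 (SE; unadjusted p = 0.0326, adjusted p = 0.472 in limma). Its 4 probe sets above the filter lay between -0.28 and -0.22, of which 2 had an unadjusted p under 0.05 in limma. Omission of probe sets with suffix _x_at or _s_at left a difference of -0.23 (unadjusted p = 0.0741 in limma). MCM3 read 11.30, 11.29 and 11.17 against 11.33, 11.40 and 11.36, also without overlap, and differed by -0.11 ± 0.07. MCM2 and MCM6 differed by -0.12 ± 0.08 and -0.10 ± 0.08, with overlapping groups. MCM7 and MCM5, of the same ring, were at 0.04 ± 0.07 and 0.03 ± 0.08, the latter at -0.05 without aligned 3. MCM10, a helicase activator outside the ring, was at -0.01 ± 0.09, and its sign turned without aligned 1, aligned 3, random 2 or random 3. All 7 MCM genes were lower on aligned fibers between the arrays numbered 2, against 5 between those numbered 1 and 4 between those numbered 3.

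Of the genes that turn the loaded ring into a moving helicase, GINS1 had the most negative difference. It read 10.32, 10.02 and 9.86 on aligned and 10.17, 10.34 and 10.47 on random fibers, so aligned 1 lay above random 1 and the groups overlapped. The difference was -0.26 ± 0.13 (SE; unadjusted p = 0.0880, adjusted p = 0.495 in limma), and -0.16 without aligned 3. CDC7, the kinase that phosphorylates MCM, read 8.67, 8.82 and 8.52 against 8.67, 8.86 and 9.04 and differed by -0.19 ± 0.12, of which most lay between the arrays numbered 3. CDC45, at 0.06 ± 0.09, and GINS3, at 0.07 ± 0.10, turned to -0.01 and -0.03 without aligned 3. GINS2 was at -0.05 ± 0.09. The 3 GINS genes, whose proteins sit in 1 complex, thus ranged from -0.26 to 0.07 with standard errors of 0.09 to 0.13.

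At the fork, PCNA, the sliding clamp that tethers the polymerases, was read with little spread in either group. It read 11.82, 11.79 and 11.71 on aligned and 11.97, 12.01 and 11.98 on random fibers. All aligned arrays were at least 0.15 below the random array of equal number, the arrays numbered 1 included. The difference was -0.22 ± 0.07 (SE; unadjusted p = 0.0147, adjusted p = 0.463 in limma), or 1.16-fold, and stayed between -0.24 and -0.19 with any 1 array left out. None of the 4 clamp loader genes, whose products place PCNA on DNA, was lower on all aligned arrays. RFC4 read 10.79, 10.78 and 10.89 against 10.68, 10.76 and 10.75, higher on every aligned array, with a difference of 0.09 ± 0.07 (unadjusted p = 0.252 in limma), whereas RFC2, RFC3 and RFC5 were at 0.02 ± 0.08, 0.03 ± 0.09 and -0.0023 ± 0.10 with overlapping groups. The sign of RFC2 turned without aligned 3, random 1 or random 2 that of RFC3 without aligned 2 or random 1, and that of RFC5 without aligned 1, aligned 2 or random 3.

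The polymerase genes lay around zero. PRIM1, the catalytic subunit of primase, read 9.29, 9.31 and 9.49 against 9.12, 9.27 and 9.46 and differed by 0.08 ± 0.11. In each pair of equal number the aligned array was the higher one, but the groups overlapped. POLA1, the catalytic subunit of the primase-bound polymerase alpha, was at -0.09 ± 0.10. POLD1 and POLD3 of polymerase delta and POLE2 of polymerase epsilon were at 0.01 ± 0.12, 0.02 ± 0.11 and 0.03 ± 0.10. Their signs turned with arrays left out, POLD1 to -0.08 and POLD3 to -0.05 without aligned 3, and POLE2 to -0.06 without random 1.

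All 6 genes of single-strand binding, Okazaki fragment joining and methylation upkeep had a negative difference, as had 47.5% of all genes, though RPA2 turned to 0.05 without aligned 2 and LIG1 to 0.04 without random 3 and 0.0078 without aligned 1. FEN1, the flap nuclease that trims Okazaki fragments, read 11.04, 10.99 and 10.92 on aligned and 11.12, 11.18 and 11.11 on random fibers, without overlap. The difference was -0.16 ± 0.07 (SE; unadjusted p = 0.0606, adjusted p = 0.474 in limma), and its second probe set gave -0.17. RPA1, the large subunit of the single-strand binding complex, read 11.46, 11.38 and 11.41 against 11.48, 11.51 and 11.54, separated by a narrow gap, and differed by -0.09 ± 0.07. RPA3 differed by -0.15 ± 0.08 and RPA2 by -0.02 ± 0.09, both with overlap. UHRF1, which guides maintenance methylation behind the fork, differed by -0.09 ± 0.07 and the ligase LIG1 by -0.05 ± 0.10. None of the 6 had an unadjusted p under 0.05.

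The 5 genes of nucleotide supply also had negative differences, and random 3 was the highest array in all 5. TK1, the thymidine kinase of S phase, read 9.22, 9.10 and 9.34 on aligned and 9.36, 9.40 and 9.63 on random fibers, without overlap. The difference was -0.24 ± 0.10 (SE; unadjusted p = 0.0458, adjusted p = 0.472 in limma), and -0.16 without random 3. TYMS, which makes thymidylate, read 12.71, 12.71 and 12.59 against 12.76, 12.86 and 12.99. It did not overlap, differed by -0.20 ± 0.08 (unadjusted p = 0.0517, adjusted p = 0.472 in limma), and its 3 probe sets lay between -0.25 and -0.20. The ribonucleotide reductase genes RRM1 and RRM2 differed by -0.08 ± 0.10 and -0.07 ± 0.11 and turned to 0.01 and 0.05 without random 3. DUT, which removes dUTP, differed by -0.08 ± 0.08 on a probe set that may match other transcripts and by -0.19 and -0.10 on its other 2.

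Random 3 was more often the highest array among these genes than among all genes. It was the highest array in 21 of 47 genes (44.7%, against 24.8% of all genes tested), while random 2 was the lowest in 0 (against 13.5%). Aligned 3 was the lowest in 13 (27.7%, against 26.5%), near the share of all genes, and the highest in another 13 (27.7%, against 33.5%). The median difference was -0.01 for number 1, -0.10 for number 2 and -0.13 for number 3, aligned against random of equal number. In the same order, 26, 38 and 31 of the 47 genes were lower on aligned fibers, against 50.6%, 48.2% and 47.7% of all genes. Random 1 was the lowest array in 11 genes, against 16.8% of all genes, and 7 of the 11 were of the polymerase and clamp loader role.

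**Figure D3:**
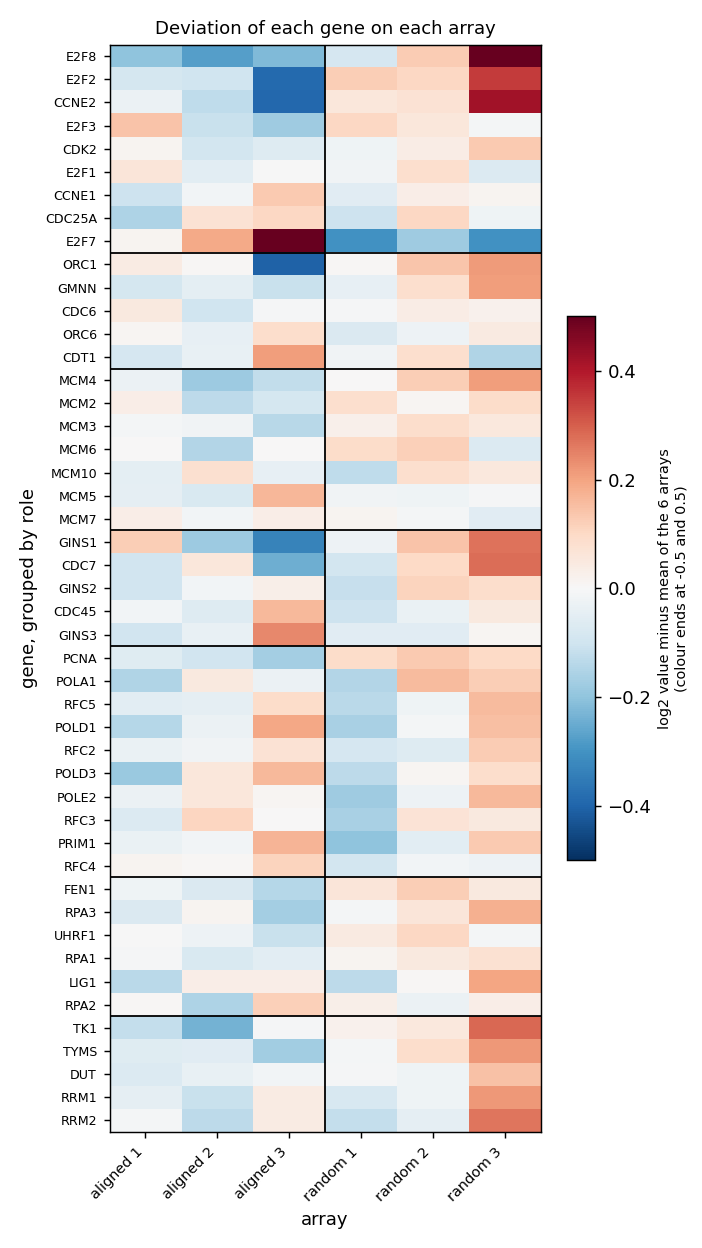
Deviation of each gene (rows, grouped by role) from its own mean on each array (columns), in log2 units, with the colour scale ending at -0.5 and 0.5. Red dominates the random 3 column, where 21 of 47 genes are at their highest, while aligned 3 is at its lowest for 13 genes and at its highest for another 13.

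The 88 probe sets of the 47 genes allowed a check within genes. Of these, 81 passed the filter and 57 had a negative difference (70.4%, against 50.9% of all probe sets tested). Lower at an unadjusted p under 0.05 in limma on probe sets were 8 (9.88%, against 5.83%). With Benjamini-Hochberg adjustment over 27621 probe sets 0 passed, and the lowest adjusted p of the 81 was 0.506. In 25 genes several probe sets passed the filter, and in 7 of them these differed in sign, all 7 genes within 0.1 of zero. The 2 probe sets of CCNE2 gave -0.47 and -0.36, and those of TK1 -0.24 and -0.22.

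The remaining genes of the pathway, a list of 59 genes, showed no common direction. Of 56 that passed the filter 31 had a negative and 25 a positive difference, with a median of -0.01 that turned to 0.03 without random 3 and to 0.02 without aligned 1. The limma fit called 0 of them at an adjusted p of 0.05. At an unadjusted p under 0.05, 2 of the 56 were lower (against 5.81% of all genes) and 1 was higher (against 4.72%). Neither count exceeded the share of all genes. Lower were HELLS, a chromatin remodeller, at -0.21 ± 0.08 (SE) and DCK, deoxycytidine kinase, at -0.25 ± 0.10. Higher was PRIM2, the regulatory subunit of primase, at 0.23 ± 0.10. RB1, the retinoblastoma protein, differed by -0.20 ± 0.09 (unadjusted p = 0.0628, adjusted p = 0.474 in limma) and E2F4, the repressor-type E2F of quiescent cells, by 0.13 ± 0.07. ORC5 differed by 0.24 ± 0.11, TICRR, which helps origins to fire, by -0.18 ± 0.14, and RRM2B, the p53-induced reductase subunit, by -0.21 ± 0.09.

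Genes of mitosis and the spindle, active later in the same cycle, were set beside them as the most similar group. All 39 measured mitosis genes had a negative difference, with a median of -0.28, against 30 of 47 and -0.07 for the replication genes. Of all genes tested 47.5% had a negative difference, with a median of 0.01. The mitosis median was -0.13 without aligned 3 and -0.10 without random 3. Between the arrays numbered 1, 2 and 3 it was 0.06, -0.10 and -0.73, where the replication genes were at -0.01, -0.10 and -0.13. The groups did not overlap in 4 of 39 mitosis genes, all lower on aligned fibers, against 11 lower of 47 replication genes (23.4%). The mitosis count was near the share of all genes lower without overlap, 9.33%. Aligned 3 was the lowest array in 36 of 39 mitosis genes, against 13 of 47 (27.7%) and 26.5% of all genes. Neither difference between the lists was tested. Of 14 replication-dependent histone genes on the array, made in S phase to package the new DNA, 7 passed the filter. Of these 5 had a negative difference. The median of the 7 was -0.33, and -0.25 without random 3. H1-3, 1 of the 2 genes with a positive difference, exceeded the array median only on the 3 aligned arrays. Its sign thus followed from the filter. H2AC4, the other, also lay near the array median.

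**Figure D4:**
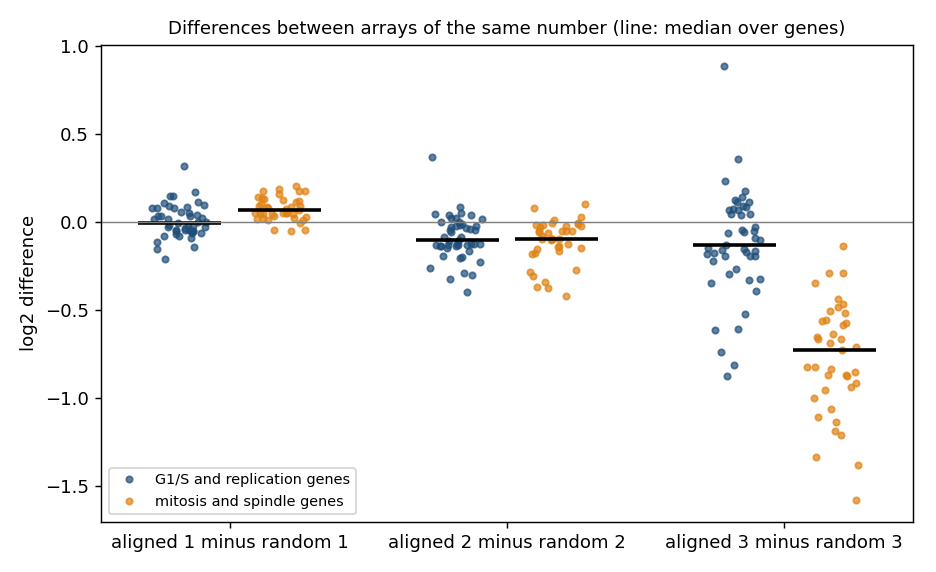
Log2 difference between the aligned and the random array of the same number (x axis), for each of 47 G1/S and replication genes and 39 mitosis and spindle genes, with a line at the median over genes. The medians are -0.01 and 0.06 for number 1, -0.10 and -0.10 for number 2, and -0.13 and -0.73 for number 3, where all 39 mitosis genes lie below zero and the replication genes lie on both sides of it.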

How the data were processed

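The authors deposited log2 values from RMA, according to the submitters' processing notes, with 1 value for each probe set on each array; the RMA version is not given in the sources used here. RMA brings all arrays to a common distribution, so a change shared by most genes cannot be seen. Without 62 control probe sets 54613 remained, of which 27621 passed the filter. Symbols came from the platform annotation. Precision is limited by the 6 arrays; the median standard error of the 47 differences was 0.09 log2 units.

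Aligned was compared with random in limma 3.58.1 (lmFit, eBayes, two-sided, R 4.3.3) over 12381 genes, with 4 residual degrees of freedom and Benjamini-Hochberg adjustment at 0.05. The fit was run on simulated data with independent noise for each gene and array. Those data held no array that stands apart, so the run does not cover that case. Described by rule were, per role, the 4 genes with the smallest p and every gene with a positive difference, and of other pathway genes the 2 with the smallest p per list. The remaining genes are given as values only. The genes, lists and tests were chosen with earlier results of these data known.

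Both groups carry the replicate numbers 1 to 3, with no statement of what a number shares. Deviations from the group means correlated by 0.369, 0.322 and 0.109 between arrays of equal number, all above a limit of 0.1. That limit was a fixed value with no test behind it, so the pairing is an assumption. Equal numbers were therefore compared as pairs in the differences by number, although aligned 2 and random 3 correlated by 0.188. The main fit, which gave the standard errors and limma p-values quoted per gene, did not use the numbers. With the number as a block in limma, the unadjusted p was 0.0689 for CCNE2 and 0.0504 for MCM4. Alternatives were the number as a block, filtering at the 75th percentile or not at all, centred arrays, quantile normalization, a robust trended prior, the mean of probe sets, omission of probe sets with suffix _x_at or _s_at, and each array left out.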

Additional observations from a re-analysis of the deposited data

How the results depend on the processing

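In every setting run 0 of the 47 genes passed the adjusted threshold, the replicate block included, where the lowest adjusted p was 0.362 in limma. With the replicate block, 4 genes were lower at an unadjusted p under 0.05 (E2F2, E2F8, PCNA and TK1), against 6 without it, 1 was higher, and the block changed no adjusted call. With 1 array left out, the count of 6 ranged from 3 (2.79% to 4.88% of all genes) to 8 (5.54%). It was 6 without aligned 1, where 10.1% of all genes were lower. The count of 11 genes without overlap ranged from 13 to 18 (12.1% to 18.8% of all genes, fewer arrays leaving fewer values to overlap). The median ranged from -0.09 to -0.03. The 366 values of the 47 genes under settings that keep all arrays held 8 reversals, in 7 genes and all near zero: E2F1 at -0.0015 with arrays centred on their median and -0.0080 with the mean of all probe sets, CDC25A at -0.00030 and POLD3 at -0.0047 with that mean, MCM10 at 0.0021 and RFC5 at 0.011 with quantile normalization, and GINS2 at 0.0096 and GINS3 at -0.014 without the suffixed probe sets. With an array left out 36 of 282 values reversed, in 19 genes: E2F1 ranged from -0.032 to 0.045, CCNE1 from -0.057 to 0.060, CDC25A from -0.035 to 0.095, CDC6 from -0.071 to 0.0036, CDT1 from -0.034 to 0.11, MCM5 from -0.046 to 0.076, MCM10 from -0.071 to 0.035, CDC45 from -0.0092 to 0.10, GINS3 from -0.030 to 0.14, POLD1 from -0.080 to 0.092, POLD3 from -0.053 to 0.12, POLE2 from -0.057 to 0.11, RFC2 from -0.023 to 0.083, RFC3 from -0.044 to 0.070, RFC5 from -0.070 to 0.077, RPA2 from -0.086 to 0.051, LIG1 from -0.13 to 0.039, RRM1 from -0.14 to 0.013 and RRM2 from -0.14 to 0.050. The cause of these changes was not tested. Fewer arrays give fewer degrees of freedom. Detection calls were not used here, so signal over background is unknown.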
